A study of Mus musculus with 25 samples.

Results

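The MYC, MAX and MXD network is a family of transcription factors that bind DNA in pairs, and it was followed here through 7 genes: Myc, Max, Mxd1, Mxd4, Mxi1, Mnt and Mlx. They were taken by symbol, and all 7 were present among the 24411 gene symbols counted in the series. The series measured ribosome-depleted, strand-specific RNA from mouse macrophages in 25 libraries and 9 conditions. Bone marrow-derived macrophages (BMDMs) of C57BL/6 mice, grown with M-CSF at 25 ng/ml for 4 days, made up 21 libraries in 7 conditions of 3 replicates each. BMDMs were left as controls (labelled as cultured for 4 h), treated with IFN-γ at 100 U/ml and with LPS at 100 ng/ml at labelled times of 1 h, 4 h, 12 h or 24 h, or given IL-4 or IL-13, each at 10 ng/ml, for 12 h. The study describes the IFN-γ/LPS cells as primed with IFN-γ before LPS, and the length of that priming is not given in the sources used here. The other 4 libraries came from RAW264.7 cells, a transformed mouse macrophage line, as 2 controls and 2 libraries with LPS at 100 ng/ml for 4 h and no IFN-γ. The study's methods describe the BMDM samples as independent biological triplicates, whereas the RAW264.7 replicates came from 1 line. The 3 BMDM controls served every comparison with resting BMDMs, so those comparisons share their control.

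MYC pairs with MAX, binds the E-box CACGTG and activates genes of growth and metabolism. MXD1, MXD4, MXI1 and MNT pair with the same MAX, occupy the same sites and recruit the SIN3 corepressor with histone deacetylases, so they oppose MYC. MLX is a MAX-like partner that pairs with the glucose-sensing factors MLXIP and MLXIPL and also with MXD1, MXD4 and MNT. In macrophages Myc is known as an immediate early gene and as a gene of alternative activation by IL-4.

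Because the proteins of this network bind the E-box, the promoters of its own genes were searched for CACGTG, which reads the same on both strands. The windows were those of RefSeq (GRCm38.p6), from 250 bases before to 50 bases after a gene's start, and 6 of the 7 genes had one. The motif was found in 4 of the 8 windows of these 6 genes (50%), each in another gene, against 7.15% of all 32851 windows. It was not found in the window of Mxd1 or in the 3 windows of Mxi1. Among other genes of the wider network, a window of Mlxipl held it and those of Mga, Mycl, Mlxip, Mycn and Mxd3 did not. The 4 stretches below show the motif in capitals with the bases around it, on the gene's own strand. They lie at chr12:76962234-76962263 on the minus strand for Max, chr11:101087238-101087267 on the plus strand for Mlx, chr11:74830789-74830818 on the plus strand for Mnt and chr5:34187912-34187941 on the minus strand for Mxd4.
Max: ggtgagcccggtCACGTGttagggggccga
Mlx: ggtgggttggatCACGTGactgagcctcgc
Mnt: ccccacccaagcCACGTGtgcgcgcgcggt
Mxd4: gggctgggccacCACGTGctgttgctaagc
The motif began 3 bases before the RefSeq start in Max, 40 before it in Mlx, 123 before it in Mnt and 219 before it in Mxd4. Gene positions given below are those of GENCODE M21, whose starts can differ from these. A match is a description of these letters and was not set against binding.

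Levels are given as CPM, the read count scaled to a common library total, of the sense-strand counts of a library without the ribosomal precursor Rn45s, which took 20.1% to 39.8% of the counts. Without it a library held 1502618 to 2532496 counts, so a level of a few CPM stands for a few reads and carries a large counting error. Fold changes come from edgeR's quasi-likelihood test with TMM scaling, and a gene was called at a Benjamini-Hochberg adjusted p of at most 0.01 over all genes tested. The choice of scale matters here, because plain library totals moved the median log2 change of all genes against TMM by -0.53 at 4 h, by -0.31 at 12 h and by 0.27 between resting RAW264.7 cells and BMDMs. Every called change of a member kept its direction on plain totals. In the cells themselves, all 8 macrophage markers examined were present in BMDMs, while 7 of 8 reached 1 CPM in RAW264.7 cells, where Mertk was at 0. The summed macrophage markers moved with the time course: they lay between 24906 and 26744 CPM in the BMDM controls. The 1 h group held 16646 to 17365 CPM and the 4 h group 13147 to 14182. Sums of 15265 to 17535 CPM followed in the 12 h group, and the 24 h group held 26432 to 29693. Their part in the results was not tested. Fibroblast markers summed to 79.2 to 117 CPM in the BMDM controls and 47.3 to 80.04 CPM at 4 h, from Col1a1, Col1a2, Col3a1 and Dcn, and were at 0 in RAW264.7 cells, and their part in the results was not tested. In such bulk RNA, fewer cells of a type and less RNA per cell cannot be told apart. T cell and erythroid markers were at 0 in all libraries, and the summed markers of each other blood lineage reached at most 7.71 CPM. Reads on the wrong strand of Rn45s took 0.0386% to 0.122% in the 12 libraries of the control and the 1 h, 4 h and 12 h groups, and 0.00603% to 0.0214% in the 9 libraries of the 24 h, IL-4 and IL-13 groups. The 2 sets do not overlap, so a technical difference between them and the treatments cannot be told apart in comparisons that cross them. In RAW264.7 libraries the share was 0.0199% to 0.0283%, below that of every BMDM control.

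The balance of the network genes changed during IFN-γ/LPS treatment of BMDMs. At 1 h, Myc and Mxd1 had risen and Mnt and Mxd4 had fallen, so that 4 of the 7 members were called where 26% of all genes tested were. At 4 h, Max and Mxd1 were higher and Myc, Mxd4, Mxi1 and Mnt were lower, which made 6 of 7 members against 51.5% of all genes. At 12 h and again at 24 h all 7 members were called, with Mlx, Max and Mxd1 higher and the other 4 lower, against 47.3% and 45.2% of all genes. Between the time points, 5 members differed from 1 h to 4 h (38.9% of all genes), 3 from 4 h to 12 h (35.9%) and 2 from 12 h to 24 h (14.2%). The 24 h libraries are in the other set by the wrong-strand share of Rn45s. A technical difference therefore cannot be told apart from time when 24 h is compared with the control or with 12 h. Because the controls are labelled as 4 h in culture, treatment and culture time cannot be told apart at 1 h, 12 h and 24 h. At 4 h the labels match, but the length of the IFN-γ priming is not given, so the total times may differ there too.

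**Figure D1:**
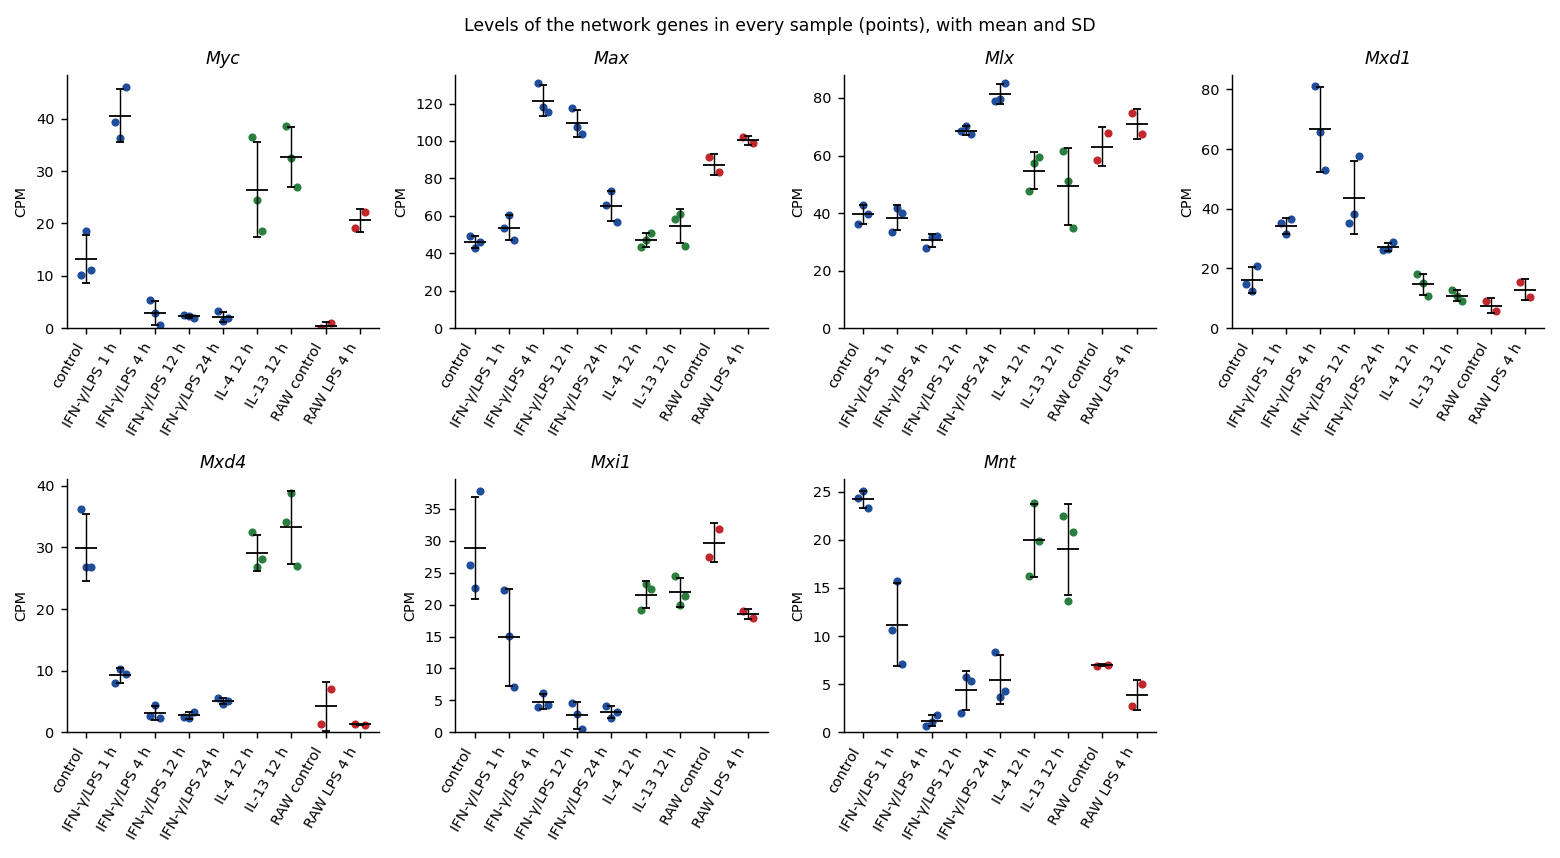
Level of each of the 7 network genes in CPM (vertical axis, starting at 0, different in each panel) in every library of the 9 conditions, with BMDM control and IFN-γ/LPS libraries in blue, BMDM cytokine libraries in green and RAW264.7 libraries in red. The dash and bar give the mean and SD of 3 BMDM or 2 RAW264.7 libraries, and Myc is highest at 1 h, at 36.3 to 46.2 CPM, and at 0.602 to 5.32 CPM by 4 h.

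Myc, on chromosome 15 (61985391 to 61990374, plus strand, GRCm38/mm10), rose and then fell during IFN-γ/LPS treatment. In the 3 control libraries it stood at 10.1, 18.5 and 11.1 CPM. After 1 h of IFN-γ/LPS it was at 39.3, 36.3 and 46.2 CPM, above every control, a 3.51-fold rise (log2 fold change 1.81 ± 0.22 SE, adjusted p = 4.0e-09). By 4 h the libraries held 5.32, 2.78 and 0.602 CPM, all below every control. The log2 fold change against control was then -1.68 ± 0.41 (adjusted p = 4.2e-04). It rested partly on replicate 3, the lowest library, since without it the value was -1.19 with an adjusted p of 0.014, and without replicate 1 it was -2.33.

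The step from 1 h to 4 h was the largest of the time course for Myc, at -3.49 ± 0.32 on the log2 scale (adjusted p = 4.2e-13), or -4.16 without replicate 1 of the 4 h group. Levels then stayed low, with 2.55, 2.28 and 1.93 CPM at 12 h and 3.26, 1.38 and 1.97 CPM at 24 h. Neither later step was called, at -0.54 ± 0.58 (adjusted p = 0.47) and -0.12 ± 0.56 (adjusted p = 0.92). Against the control, Myc remained lower at 12 h (-2.21 ± 0.41, adjusted p = 7.3e-06) and at 24 h (-2.34 ± 0.39, adjusted p = 1.3e-06). These late groups hold 13 to 15 Myc reads over 3 libraries each, and the 2 later steps carry SEs of 0.58 and 0.56. A small further change could therefore have been missed at this depth.

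Max, on chromosome 12 (76937269 to 76962201, minus strand), encodes the partner shared by MYC and its antagonists. Its control libraries held 49.4, 42.9 and 46.0 CPM. At 1 h the libraries held 53.7, 60.4 and 47.1 CPM, which overlapped the controls and was not called (0.40 ± 0.14, adjusted p = 0.024). At 4 h it had risen to 131, 118 and 116 CPM (1.92 ± 0.13, adjusted p = 6.1e-18), the highest level of Max in the series. It was still raised at 12 h, at 118, 107 and 103 CPM (1.55 ± 0.13, adjusted p = 1.1e-14). By 24 h it stood at 65.6, 73.1 and 56.9 CPM, lower than at 12 h (-0.84 ± 0.12, adjusted p = 2.6e-07) but above the control (0.72 ± 0.14, adjusted p = 1.3e-05). Max was therefore highest when Myc was among its lowest values. The smaller step from 4 h to 12 h (-0.37 ± 0.11, adjusted p = 0.0067) was lost in DESeq2 (adjusted p = 0.014), on plain totals (-0.15, adjusted p = 0.29) and without replicate 1 or 2 of the 4 h group or replicate 2 or 3 of the 12 h group (-0.34 to -0.38, adjusted p 0.013 to 0.029).

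Mlx, on chromosome 11 (101087277 to 101092207, plus strand), moved later than the other members. It stood at 36.3, 42.9 and 39.6 CPM in the controls, 33.5, 41.7 and 39.97 CPM at 1 h and 28.0, 31.7 and 31.9 CPM at 4 h. The 4 h libraries lay below the controls in plain CPM, but the TMM-scaled change was 0.16 ± 0.16 (adjusted p = 0.41) against -0.37 on plain totals (adjusted p = 0.033), so its direction at 4 h depended on the scale and no change was called. At 12 h Mlx had risen to 68.5, 70.2 and 67.4 CPM (1.10 ± 0.14, adjusted p = 1.6e-09) and at 24 h to 79.1, 79.5 and 85.3 CPM (1.26 ± 0.13, adjusted p = 1.4e-11). All 6 late libraries were above all earlier ones, and the step from 4 h to 12 h was itself called (0.94 ± 0.14, adjusted p = 4.1e-07).

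Among the 4 repressive partners of MAX, Mxd1 went up while Mxd4, Mxi1 and Mnt went down. Mxd1, on chromosome 6 (86647042 to 86669161, minus strand), held 14.9, 12.5 and 21.0 CPM in the controls and 35.1, 31.4 and 36.6 CPM at 1 h (1.28 ± 0.22, adjusted p = 8.9e-06). It was highest at 4 h, with 81.2, 65.7 and 53.0 CPM, a 5.89-fold rise on the TMM scale (2.56 ± 0.20, adjusted p = 7.5e-15). None of the IFN-γ/LPS libraries overlapped the controls. It fell back to 35.3, 38.3 and 57.8 CPM at 12 h (-0.80 ± 0.17 from 4 h, adjusted p = 9.5e-05) and to 26.1, 26.7 and 28.8 CPM at 24 h. The last step (-0.78 ± 0.18, adjusted p = 0.0011) rested on replicate 3 of the 12 h group, without which it was -0.50 with an adjusted p of 0.052. At 24 h Mxd1 was still above the control (0.97 ± 0.23, adjusted p = 3.0e-04).

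Mxd4, on chromosome 5 (34173883 to 34187720, minus strand), fell early. Its control libraries held 36.3, 26.8 and 26.8 CPM and its 1 h libraries 7.97, 10.3 and 9.52 CPM (-1.50 ± 0.23, adjusted p = 6.9e-07). It was at 2.66, 4.45 and 2.41 CPM at 4 h, 2.55, 2.28 and 3.37 CPM at 12 h and 5.58, 4.60 and 5.13 CPM at 24 h. All 12 treated libraries were below all controls, and the largest decrease was that at 12 h (-3.10 ± 0.30, adjusted p = 1.3e-12). The further step from 1 h to 4 h (-1.16 ± 0.38, adjusted p = 0.0091) sat at the threshold. It was lost with DESeq2 (adjusted p = 0.035) and in 9 of the 15 fits without 1 library, among them those without replicate 1 or 3 of the 4 h group (adjusted p 0.041 and 0.053), replicate 2 or 3 of the 1 h group (0.029 and 0.025), replicate 2 or 3 of the control, replicate 1 of the 12 h group and replicate 2 or 3 of the 24 h group (0.010 for each of these).

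Mxi1, on chromosome 19 (53310518 to 53375810, plus strand), which encodes the MXD family member also called MXD2, fell more gradually. It was at 26.2, 22.6 and 37.8 CPM in the controls and at 22.3, 15.1 and 7.14 CPM at 1 h, where the groups were close and no change was called (-0.79 ± 0.28, adjusted p = 0.026). Without replicate 1 of the 1 h group it was called (-1.22, adjusted p = 0.0021), as it was on plain totals (-0.98, adjusted p = 0.0063), with no filter beyond 1 count (-0.76, adjusted p = 0.0057) and without replicate 3 of the 12 h group (-0.79, adjusted p = 0.0082). The 4 h libraries held 3.99, 6.12 and 4.21 CPM (-2.04 ± 0.37, adjusted p = 1.8e-05). The 12 h libraries held 4.60, 2.85 and 0.481 CPM (-3.14 ± 0.40, adjusted p = 4.9e-08, or -3.82 without replicate 1) and the 24 h libraries 4.19, 2.30 and 3.16 CPM (-2.92 ± 0.37, adjusted p = 3.2e-08). From 4 h on, no library reached the lowest control.

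Mnt, on chromosome 11 (74830920 to 74845725, plus strand), encodes a broadly expressed antagonist of MYC. It was tightly grouped in the controls, at 24.4, 25.0 and 23.3 CPM. At 1 h it was at 10.6, 15.7 and 7.14 CPM, below every control (-0.96 ± 0.26, adjusted p = 0.0030). This call was lost with DESeq2 (-0.94, adjusted p = 0.030) and without replicate 1 or 2 of the control (adjusted p 0.010 and 0.013) or replicate 1 or 3 of the 1 h group (-0.93 and -0.69, adjusted p 0.017 and 0.061). At 4 h it was at its lowest, with 0.666, 1.11 and 1.81 CPM, or 6 reads over the group against 123 in the control. The ratio of control to 4 h was 20.03 in plain counts, with an exact 95% interval of 8.94 to 55.6 that covers counting error only, and the fitted change was -3.74 ± 0.45 (adjusted p = 5.1e-10). Levels of 2.04, 5.71 and 5.29 CPM at 12 h and 8.37, 3.68 and 4.34 CPM at 24 h were above those at 4 h in every library. The step from 4 h to 12 h was not called (1.58 ± 0.62, adjusted p = 0.034), except without replicate 1 of the 12 h group (1.93, adjusted p = 0.0093). Against the control Mnt was still lower at 12 h (-2.16 ± 0.32, adjusted p = 9.0e-08) and 24 h (-1.93 ± 0.29, adjusted p = 1.5e-07).

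**Figure D2:**
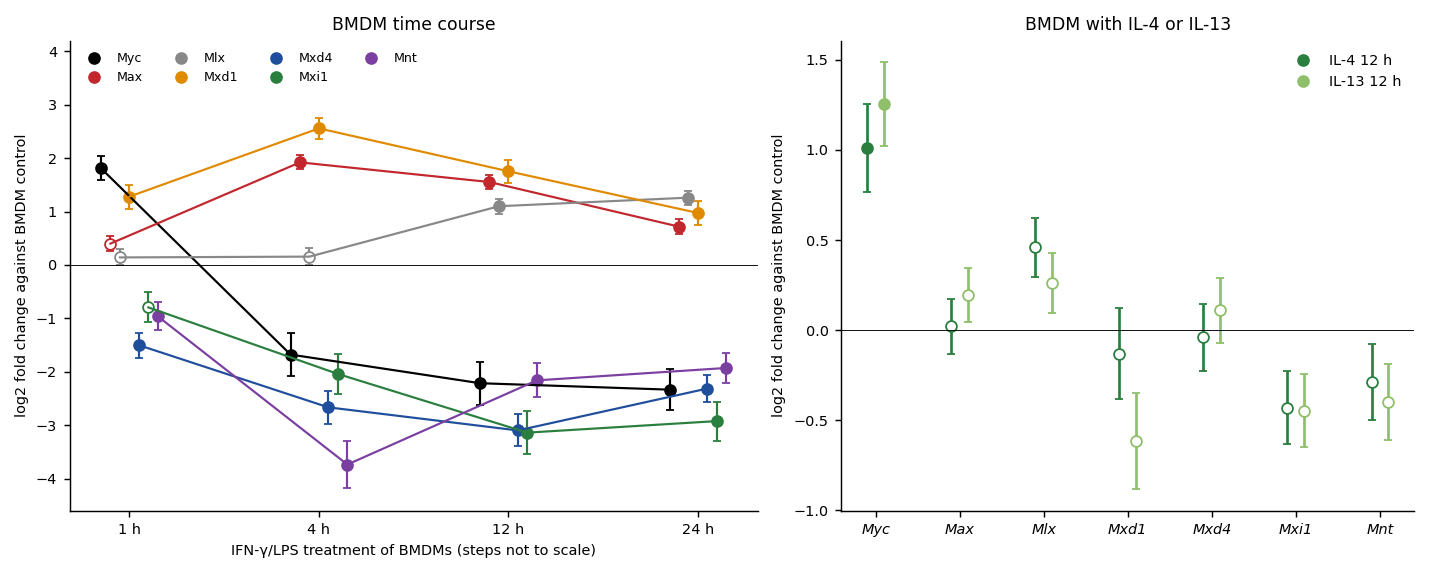
Log2 fold change of each member against the BMDM control (vertical axes), over the 4 times of IFN-γ/LPS on the left and for IL-4 and IL-13 at 12 h on the right. Points are edgeR estimates from 3 libraries a group, bars are SEs and filled points were called: Myc crosses from 1.81 at 1 h to -1.68 at 4 h on the left and is the only filled gene on the right.

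Levels of different genes can be set side by side only per length, so CPM were divided by the union of the annotated exons. Summed over Mxd1, Mxd4, Mxi1 and Mnt, the controls held 15.3 ± 1.53 CPM per kb (SD, n = 3), of which Mxd1 made up 14.8% ± 2.61. The sum was 10.5 ± 1.43 CPM per kb at 1 h and 10.8 ± 1.88 at 4 h, when the Mxd1 share was 47.0% ± 9.95 and 87.3% ± 3.83. It was 7.84 ± 1.74 at 12 h and 6.10 ± 0.660 at 24 h, with Mxd1 at 78.4% ± 4.89 and 63.6% ± 7.98. The Mxd1 shares in the control, at 12.96% to 17.7%, did not overlap those of any IFN-γ/LPS group, the lowest of which was 39.4%. In each IFN-γ/LPS group Mxd1 had the largest mean share. In the control the largest mean share was that of Mnt, at 34.6% ± 4.76 (30.1% to 39.6%). It overlapped that of Mxi1, at 27.4% ± 5.02 (24.3% to 33.2%), so no single gene led there in every library. The order of the genes also depends on the exon lengths used. These shares describe RNA per exon length in 3 libraries a group and were not tested. The sums are on plain library totals and depend on the scale, whereas shares within a library do not. Scaled by TMM over all libraries, mean Mxd1 was 14.7 CPM in the control and 90.8 at 4 h. Mxd4 was then at 27.3 and 4.35, Mxi1 at 26.4 and 6.55 and Mnt at 22.1 and 1.64 CPM. The sum was not computed on that scale, so its lower value at 4 h is shown for plain totals only.

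**Figure D3:**
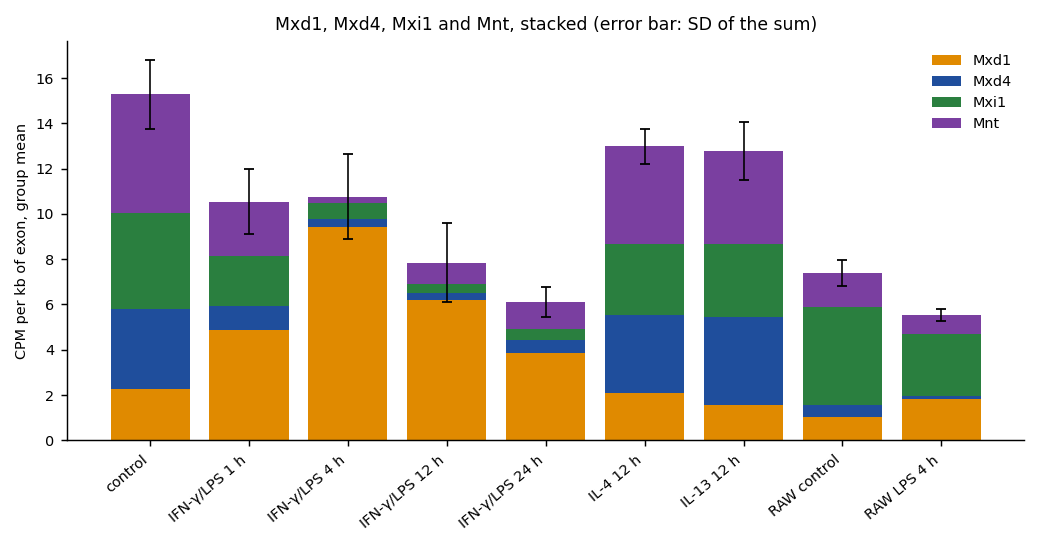
Mean level of Mxd1, Mxd4, Mxi1 and Mnt in each condition, stacked, in CPM per kb of exon on plain library totals (vertical axis from 0), with the SD of the summed level as error bar for 3 BMDM or 2 RAW264.7 libraries. Mxd1 takes 14.8% of the sum in the BMDM control and 87.3% at 4 h of IFN-γ/LPS, and Mxi1 takes 58.8% in RAW264.7 controls.

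With IL-4 and with IL-13, Myc was the only member called. It rose to 36.5, 24.4 and 18.6 CPM with IL-4 (2.01-fold, log2 1.01 ± 0.24, adjusted p = 0.0025) and to 38.5, 32.5 and 27.0 CPM with IL-13 (2.38-fold, log2 1.25 ± 0.23, adjusted p = 4.5e-05). Every IL-13 and IL-4 library was above the highest control, the closest being 18.6 CPM with IL-4 against 18.5 CPM. That made 1 of 7 members called with each cytokine, where 7.63% and 10.1% of all genes tested were called. The IL-4 call was lost in DESeq2 (1.00, adjusted p = 0.015), without replicate 1 or 3 of the control (0.85 and 0.90, adjusted p 0.026 and 0.021) and without replicate 1 of the IL-4 group (0.71, adjusted p = 0.098), whereas the IL-13 call held in every alternative and fit without 1 library. Both comparisons set 12 h of treatment against controls labelled as 4 h in culture and cross the 2 sets of libraries that differ in the wrong-strand share of Rn45s, so neither can be told apart from the cytokine.

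The other 6 members had log2 fold changes between -0.61 and 0.46 with either cytokine, none of them called. Mlx was at 47.5, 57.3 and 59.5 CPM with IL-4, all above the controls, but was not called (0.46 ± 0.16, adjusted p = 0.053). Mxd1 was at 12.8, 10.8 and 9.01 CPM with IL-13 (-0.61 ± 0.27, adjusted p = 0.11). Mxd4 held 26.8 to 32.4 CPM with IL-4 and 27.0 to 38.7 CPM with IL-13, and Max held 43.4 to 50.6 and 43.9 to 61.0 CPM, in each case overlapping the control. For Mxi1 the ranges were 19.1 to 23.2 and 19.9 to 24.4 CPM, and for Mnt 16.2 to 23.8 and 13.7 to 22.5 CPM. In CPM per kb the 4 repressive partners summed to 12.99 ± 0.760 with IL-4 and 12.8 ± 1.29 with IL-13, with Mxd1 at 16.0% ± 3.85 and 12.0% ± 1.29 of the sum. IL-13 and IL-4 were also compared directly: none of the 7 members was called, where 0.108% of genes were (10 of 9252, with 643 at an unadjusted p under 0.05). Myc differed by 0.25 ± 0.20 between them (adjusted p = 0.89), a difference smaller than the spread between replicates.

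At 12 h the classical and alternative treatments could be compared at the same labelled time, without the control. The length of the IFN-γ priming is not given, so the total exposure may differ between them. All 7 members differed between IFN-γ/LPS and IL-4, where 42.8% of genes were called, and between IFN-γ/LPS and IL-13, where 42.3% were. Myc was lower with IFN-γ/LPS by 3.18 ± 0.35 (SE) log2 units than with IL-4 and by 3.44 ± 0.33 than with IL-13 (log2 fold changes of -3.18 and -3.44, adjusted p = 7.6e-10 and 4.6e-11). Mxd4 was lower too (-3.02 ± 0.30 and -3.17 ± 0.29), as were Mxi1 (-2.67 ± 0.35 and -2.66 ± 0.35) and Mnt (-1.83 ± 0.32 and -1.73 ± 0.33). Without replicate 1 of the 12 h group, the values of Mxi1 were -3.36 and -3.34. Mxd1 was higher with IFN-γ/LPS by 1.93 ± 0.22 and 2.41 ± 0.24, and Max by 1.57 ± 0.14 and 1.39 ± 0.13. The smallest of these differences were those of Mlx, at 0.68 ± 0.16 and 0.87 ± 0.16, and the first was not called on plain totals (0.33, adjusted p = 0.070). These comparisons also cross the 2 sets of libraries, so a technical difference and the treatment cannot be told apart.

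RAW264.7 cells had another make-up of the network at rest. Myc was at 0 and 0.936 CPM in the control libraries, or 2 reads in all, against 67 reads in the BMDM controls, a ratio of BMDM to RAW264.7 of 28.5 with an exact 95% interval of 7.58 to 239.9. Mycn, which encodes the N-MYC paralog, stood there at 459.9 and 469.5 CPM. Mycn had 0 reads in the BMDM controls, which makes it at least 787-fold higher in RAW264.7 cells against a floor of 3 counts over the group. Per kb of exon, Mycn made up 99.9% of the summed Myc, Mycn and Mycl level in the RAW264.7 controls and Myc 98.9% in the BMDM controls. Of the 7 members, 5 were called between the resting cells, where 67.7% of all genes were. Max was higher in RAW264.7, at 91.3 and 83.3 CPM (0.64 ± 0.14, adjusted p = 2.5e-05). Mxd1 was lower, at 9.18 and 5.62 CPM (-1.39 ± 0.31, adjusted p = 2.3e-05), as were Mnt at 6.88 and 7.02 CPM (-2.07 ± 0.29, adjusted p = 1.4e-10) and Myc (adjusted p = 8.7e-13). The fitted change of Myc was -4.89 ± 0.60, with -3.94 without replicate 1 of the RAW264.7 control and -7.56 without replicate 2. Mxd4 was lower as well, at 1.38 and 7.02 CPM (-3.10 ± 0.32, adjusted p = 1.0e-16), and its value ranged from -2.32 without replicate 1 of the RAW264.7 control to -4.63 without replicate 2.

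Mxi1 was at 27.5 and 31.8 CPM in the RAW264.7 controls, within the range of the BMDM controls (-0.24 ± 0.20, adjusted p = 0.26, and 0.03 on plain totals). It made up 58.8% ± 1.40 (SD, n = 2) of the per-kb sum of the 4 repressive partners, against 27.4% ± 5.02 in BMDM controls. Mlx held 58.3 and 67.9 CPM, above the BMDM controls in both libraries, and was not called on the TMM scale (0.39 ± 0.16, adjusted p = 0.020) but was on plain totals (0.67, adjusted p = 6.8e-05) and without replicate 1 of the RAW264.7 control (0.54, adjusted p = 0.0095). The summed repressive partners stood at 7.39 ± 0.580 CPM per kb. Cell line and primary cells differ in origin, in culture and in the wrong-strand share of Rn45s, and these cannot be told apart in this comparison.

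After 4 h of LPS, Myc in RAW264.7 cells went up to 19.0 and 22.2 CPM, 94 reads against 2. The ratio was 44.6, with an exact 95% interval of 12.0 to 374 for counting error only, and the change was called (adjusted p = 2.1e-23). The fitted log2 fold change of 5.49 ± 0.53 rests on those 2 reads, both in replicate 2 of the control, and was 4.55 without replicate 1 and 8.60 without replicate 2, where the remaining control is at 0 and the value is set by the prior count. Mycn was lower with LPS, at 294.5 and 303.1 CPM (-0.46 ± 0.08, adjusted p = 8.0e-08). It still made up 92.3% of the family's per-kb sum, and Myc 7.71%. Max was the only other member called, at 102 and 98.7 CPM (0.38 ± 0.12, adjusted p = 0.0071), so that 2 of the 6 members tested were called where 27.9% of all genes were. The Max call was lost with DESeq2 (adjusted p = 0.14), on plain totals (0.20, adjusted p = 0.19) and without any 1 of the 4 libraries (0.33 to 0.44, adjusted p 0.012 to 0.092).

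Mxd1 was at 15.3 and 10.5 CPM with LPS, both above its RAW264.7 controls, and just missed the threshold (0.96 ± 0.33, adjusted p = 0.013). It passed without replicate 1 of the control (1.34, adjusted p = 0.0099) or replicate 2 of the LPS group (1.25, adjusted p = 0.0091). Mxi1 was at 19.0 and 18.0 CPM, both below the controls (-0.50 ± 0.22, adjusted p = 0.055), and was called on plain totals (-0.68, adjusted p = 0.0073). Mnt was at 2.79 and 5.02 CPM (-0.63 ± 0.44, adjusted p = 0.26) and Mlx at 74.8 and 67.3 CPM (0.35 ± 0.14, adjusted p = 0.035). Mxd4, at 1.39 and 1.25 CPM, was too low to be tested, with 6 reads against 18. Of those 18 control reads 15 were in replicate 2, and replicate 1, at 1.38 CPM, was level with the LPS libraries, so any difference rests on 1 library.

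**Figure D4:**
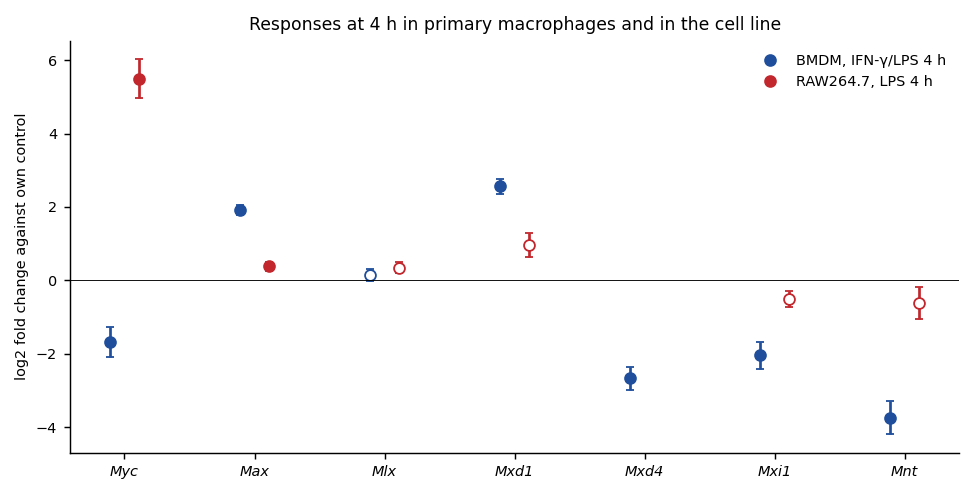
Log2 fold change at 4 h against the own control (vertical axis) in BMDMs with IFN-γ/LPS, 3 libraries a group, and in RAW264.7 cells with LPS alone, 2 libraries a group. Bars are SEs, filled points were called, Mxd4 was not tested in RAW264.7, and Myc lies at -1.68 in BMDMs and 5.49 in RAW264.7.

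The difference between the responses at 4 h was tested directly as an interaction. It was called for 5 of the 7 members, where 27.5% of all genes were, and it compares LPS alone with IFN-γ plus LPS as well as a cell line with primary cells. Myc had a difference of RAW264.7 minus BMDM of 7.02 ± 0.72 log2 units (adjusted p = 4.7e-16), which rests on the 2 reads of the RAW264.7 control and ranged from 6.09 without replicate 1 of that group to 9.70 without replicate 2, and was 7.71 without replicate 1 of the BMDM 4 h group. Max had a smaller response in RAW264.7 (-1.63 ± 0.19, adjusted p = 6.6e-14). Mnt (3.04 ± 0.71, adjusted p = 1.8e-04) and Mxi1 (1.46 ± 0.39, adjusted p = 0.0012) had less negative responses in RAW264.7, and Mxd1 a less positive one (-1.69 ± 0.41, adjusted p = 3.6e-04). The Mxi1 difference was lost with DESeq2 (1.49, adjusted p = 0.013) and without replicate 3 of the BMDM control (1.204, adjusted p = 0.013). That of Mxd1 was lost without replicate 1 of the RAW264.7 control (-1.32, adjusted p = 0.071) and that of Mnt without replicate 2 of the RAW264.7 LPS group (2.56, adjusted p = 0.029). For Mlx (0.11 ± 0.23, adjusted p = 0.78) and Mxd4 (1.15 ± 0.89, adjusted p = 0.34) no difference was called.

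Among the 6 other genes of the extended network, Mycl stood out in BMDMs. Mycl, which encodes the L-MYC paralog, had 1 read over the 3 controls and none at 1 h, and stood at 15.3, 12.8 and 12.6 CPM at 4 h. The ratio of 67 reads to 1 was 68.6 with an exact 95% interval of 11.9 to 2749, and the change was called (adjusted p = 6.5e-12). It then decreased to 4.09, 1.71 and 2.41 CPM at 12 h (-2.48 ± 0.38 from 4 h, adjusted p = 4.1e-07) and 2.33, 3.22 and 1.58 CPM at 24 h. Per kb of exon it made up 78.3% of the MYC family sum at 4 h, when Myc made up 21.7%, and that sum was 4.43 ± 1.22 CPM per kb against 4.91 ± 1.65 in the controls and 14.9 ± 1.86 at 1 h. These sums are on plain totals, and their comparison between 4 h and control depends on the scale. Scaled by TMM over all libraries, mean Mycl was 0.179 CPM in the control and 18.5 at 4 h, and mean Myc 12.1 and 3.94 CPM. Mycl had no reads with IL-4, with IL-13 or in RAW264.7 cells. Against RAW264.7 with LPS it was at least 20.5-fold higher in BMDMs at 4 h, over a floor of 3 counts.

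**Figure D5:**
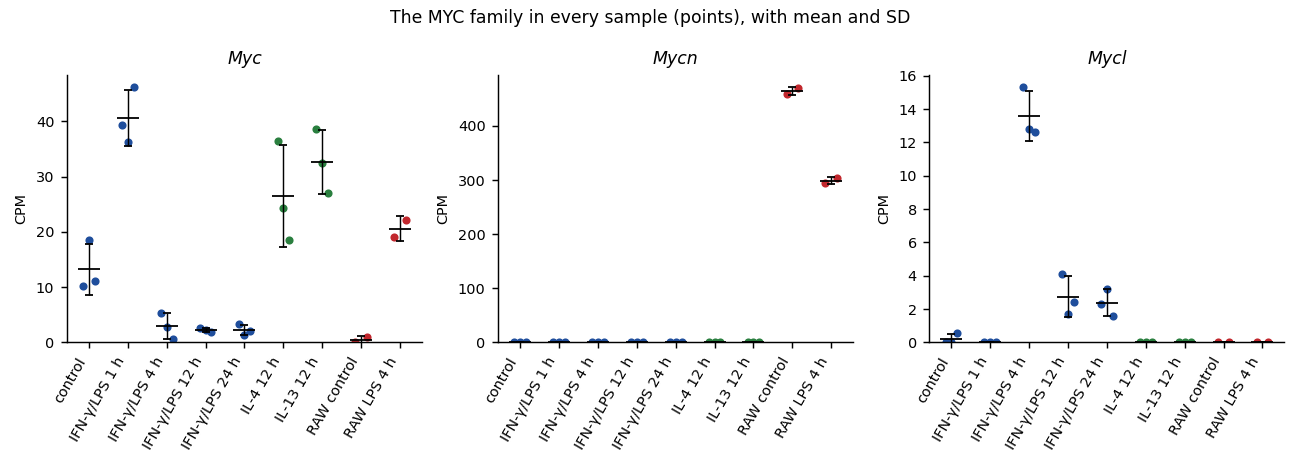
Level of Myc, Mycn and Mycl in CPM (vertical axes from 0, different in each panel) in every library of the 9 conditions, with the mean and SD of 3 BMDM or 2 RAW264.7 libraries. Mycn is at 294.5 to 469.5 CPM in RAW264.7 and has 1 read in all BMDM libraries together, and Mycl reaches 12.6 to 15.3 CPM at 4 h of IFN-γ/LPS.

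Mga, a large MAX partner, and Mlxip, a partner of MLX, were well detected in BMDMs. Mga held 57.4 ± 9.38 to 107.1 ± 15.001 CPM over the conditions (SD, n = 3) and was called in none of the 15 comparisons on the TMM scale. Mlxip was called in no comparison among BMDM groups on that scale. On plain totals both genes were called lower than the control at 4 h and at 12 h of IFN-γ/LPS, so their calls depended on the scale. Mlxip was lower in resting RAW264.7 cells (-0.97 ± 0.15, adjusted p = 7.3e-09) and rose there with LPS from 43.1 and 40.7 to 52.0 and 56.0 CPM (0.55 ± 0.16, adjusted p = 0.0025). Mlxipl had 1 read with IL-13 and 1 with LPS in RAW264.7 cells and none elsewhere. Mxd3 fell with LPS in RAW264.7 cells from 7.34 and 4.68 to 0.929 and 1.25 CPM (-2.22 ± 0.60, adjusted p = 0.0011). Reads opposite to Mxd3 outnumbered its own, with 233 in the RAW264.7 controls and 232 with LPS, so a small carry-over between strands would weigh on its value.

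Genes for proteins that work with the network moved in both directions. Of 10 corepressor genes of the MXD and MNT proteins, 9 were tested at 4 h of IFN-γ/LPS, and 3 were higher and 2 lower, with a median log2 change of -0.07 beside -0.07 over all genes. Over all genes 26.0% were called higher and 25.6% lower at 4 h. Sap30, a subunit of the SIN3 complex, rose from 23.1 ± 2.85 to 149 ± 8.19 CPM (3.21 ± 0.15), and Hdac1, a histone deacetylase, was also higher (1.10 ± 0.19). Sin3a, the scaffold of the SIN3 complex, fell from 45.5 ± 4.52 to 20.9 ± 3.07 CPM (-0.60 ± 0.18). On plain totals 3 were higher and 5 lower, with a median of -0.60, beside 1487 higher and 4641 lower of all 9568 genes. Of 12 cofactors of MYC, all tested, Ep400, a chromatin remodeller, was higher (1.57 ± 0.13) and Cdk9, the kinase of transcription elongation, was lower (-0.49 ± 0.15), with a median of 0.15. On plain totals 1 was higher and 5 were lower, with a median of -0.38 beside -0.61 over all genes.

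Of 11 genes for the turnover and modification of the MYC protein, 3 were higher and 2 lower at 4 h, with a median of -0.13. These counts stand beside 26.0% higher and 25.6% lower of all genes, with a median of -0.07. Skp2, a subunit of a ubiquitin ligase that targets MYC, fell from 20.9 ± 3.62 to 3.68 ± 0.940 CPM (-1.98 ± 0.33) and the deubiquitinase gene Usp28 was lower (-0.99 ± 0.31). The kinase gene Gsk3a (0.57 ± 0.17) and the ubiquitin ligase scaffold gene Cul1 (0.61 ± 0.12) were higher on the TMM scale, but their plain-total changes of 0.05 and 0.08 were not called. On plain totals 0 genes of this list were higher and 5 were lower, with a median of -0.66. Over all 9568 genes 1487 were higher and 4641 lower on plain totals, with a median of -0.61. Of 4 targets of the MLX partners, 3 were tested, and 1 was higher and 2 were lower on either scale, beside the same shares of all genes. Arrdc4 rose from 17.5 ± 3.94 to 109 ± 8.78 CPM (3.15 ± 0.16), whereas its relatives Arrdc3 (-4.93 ± 0.41) and Txnip (-0.49 ± 0.11), which encodes a regulator of glucose uptake, were lower.

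Textbook targets of MYC moved in both directions. Of 36, 34 were tested in the time course, and 12 were higher and 1 lower at 1 h, where 14.7% of all genes were higher and 11.3% lower (6 and 2 on plain totals). At 4 h, with Myc down, 13 were higher and 10 lower, beside 26.0% and 25.6% of all genes. On plain totals 9 targets were higher and 14 lower at 4 h, where 1487 and 4641 of all 9568 genes were. At 12 h 14 were higher and 5 lower, beside 23.9% and 23.4% of all genes (11 and 7 on plain totals). At 24 h 19 were higher and 3 lower, beside 23.9% and 21.3% of all genes (12 and 5 on plain totals). Slc7a5, an amino acid transporter subunit, rose at 4 h from 2.35 ± 1.52 to 19.4 ± 6.25 CPM (3.51 ± 0.36) and Ccnd2, a cyclin of the G1 phase, from 4.92 ± 0.651 to 78.6 ± 13.3 CPM (4.50 ± 0.33). E2f2, a cell-cycle transcription factor, fell from 11.2 ± 3.70 to 0.201 ± 0.347 CPM and Tfrc, the transferrin receptor, from 195 ± 7.63 to 22.7 ± 6.95 CPM (-2.57 ± 0.15).

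With IL-4 and with IL-13, where Myc rose, 8 of the 33 targets tested were higher and 0 were lower in edgeR's test, beside 4.38% higher and 3.25% lower of all genes with IL-4 and 5.61% and 4.49% with IL-13. On plain totals the counts were 8 and 9 higher and again 0 lower. In resting RAW264.7 cells 31 of 35 were higher than in BMDMs and 2 lower, with a median of 2.39, where 32.9% of all genes were higher and 34.7% lower. With LPS in RAW264.7 cells 15 of 35 were higher and 3 lower (9 and 6 on plain totals), where 15.1% of all genes were higher and 12.8% lower. The list was chosen with results of these data known and no test was made of it.

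Across the 9 condition means of log2(CPM + 1), the genes most like each member were listed among 8152 genes that reached 20 CPM in a condition. The 9 means come from 2 cell types and share their scaling, so the correlations are descriptions. Nearest to Myc were Zdhhc17 (r = 0.942), Nabp1 (0.924) and Serpinb6b (0.921), and Nabp1, like Myc, had its highest mean at 1 h, at 80.8 CPM. Mxd1 was nearest to Whamm (0.980), Jag1 (0.979) and Creb5 (0.977), all highest at 4 h, with Jag1, a Notch ligand, going from 15.7 CPM in the control to 182 CPM. The nearest to Max were Larp1, Minpp1 and Naa25 (0.954 to 0.971). Mxd4 was nearest to Sfxn3, Tsc22d3 and Idh1 (0.990 to 0.993), Mxi1 to Deptor, Rfk and Tcf20 (0.983 to 0.998), Mnt to Pcmtd2, Tbc1d2 and Ubald1 (0.988 to 0.995) and Mlx to Secisbp2, Mapk14 and Aldoa (0.953 to 0.976).

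Ordered by mean level over the conditions, Myc was highest with IFN-γ/LPS at 1 h (40.6 ± 5.06 CPM), followed by IL-13 (32.7 ± 5.76), IL-4 (26.5 ± 9.15), RAW264.7 with LPS (20.6 ± 2.20, n = 2) and the BMDM control (13.2 ± 4.58), with 2.90 ± 2.36 CPM at 4 h, 2.25 ± 0.316 at 12 h, 2.20 ± 0.959 at 24 h and 0.468 ± 0.662 in the RAW264.7 control. Each neighbour among the first 4 of this order overlapped the next in its range. The 3 IFN-γ/LPS groups after 1 h overlapped among themselves, and the RAW264.7 control lay below the 24 h group with no overlap. The order of Mxd1 began with 4 h (66.6 ± 14.1), 12 h (43.8 ± 12.2) and 1 h (34.4 ± 2.68), whose neighbours overlapped, and ended with the RAW264.7 control (7.40 ± 2.52). The highest mean of Mxd4 was with IL-13 (33.3 ± 5.90), of Mnt in the BMDM control (24.2 ± 0.881), of Mxi1 in the RAW264.7 control (29.7 ± 3.04) and of Mlx at 24 h of IFN-γ/LPS (81.3 ± 3.46).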

How the data were processed

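RNA of 25 macrophage libraries was depleted of rRNA and made strand-specific by the authors with the NEBNext Ultra Directional kit. Per the labels and the study's methods, the authors trimmed reads with Trimmomatic 0.33 and aligned them with STAR 2.5.1 to mm10, and they deposited STAR's raw counts of reads per gene symbol. The annotation release is not given in the sources used here. The submitters' processing notes also name CASAVA 1.8.2 and DESeq2. Sense-strand counts were used here without Rn45s, which leaves totals of 1502618 to 2532496 per library, and 62.7% to 69.1% of reads lay in no annotated feature. Genes passing filterByExpr (minimum count 10) were tested with edgeR 4.0.16 in R 4.3.3 (robust quasi-likelihood, TMM), and adjusted p-values are Benjamini-Hochberg values over all genes of a comparison. DESeq2 1.42.0 was an alternative. Other alternatives, whose effect the closing section gives, changed the scaling, the filter, the strand, the replicate block or the samples fitted, or left out each library in turn. The script was tested on simulated data. Gene positions and exon lengths are those of GENCODE M21. Intervals of count ratios are exact and cover counting error only.

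The BMDM time course (15 libraries), the cytokine groups with the control (9), the 12 h groups (9), RAW264.7 (4) and the 4 groups of the 4 h comparison between cells (10) were fitted separately. Replicates differed by more than sampling noise in all 23 pairs (chi-square per degree of freedom 1.30 to 4.53). The members and gene lists (other network genes, corepressors, MYC cofactors, MYC turnover, MYC targets, targets of MLX partners and cell type markers) were chosen with earlier results of these data known. All members and other network genes are named. From each other list at most 4 genes are named: the 2 highest and the 2 lowest log2 fold changes at 4 h of IFN-γ/LPS among called genes with a mean of at least 5 CPM in the higher group. A gene that this rule selects is not reported here. For similar genes, the 3 highest Pearson correlations were taken. BMDMs with LPS alone and the length of any IFN-γ pretreatment were not analysed here.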

Additional observations from a re-analysis of the deposited data

Results flagged for a closer look

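For 5 of the 7 members the response at 4 h differed between RAW264.7 cells and BMDMs, where 27.5% of all genes tested did. This was a direct test of the difference (edgeR interaction term, adjusted p at most 0.01). These are the results a reader may want to examine again. The log2 response in RAW264.7 minus that in BMDMs was 7.02 for Myc, which rose from 2 reads in the cell line and fell in the primary cells. It was 3.04 for Mnt and 1.46 for Mxi1, whose responses were less negative in RAW264.7, and -1.63 for Max and -1.69 for Mxd1, whose responses were less positive. The Mxi1 call was lost with DESeq2 and without replicate 3 of the BMDM control. Mxd1 was at -1.32 without replicate 1 of the RAW264.7 control, and Mnt at 2.56 without replicate 2 of the RAW264.7 LPS group. The BMDMs received IFN-γ with LPS and the RAW264.7 cells LPS alone, so stimulus and cell type cannot be told apart. Groups held 2 or 3 libraries, too few to look for outlying samples.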

How the results depend on the processing

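The direction of every called change of a member held under each alternative tried, which were DESeq2, RLE factors, library totals only, looser and stricter count filters, unstranded counts, Rn45s kept, a replicate block, fits of the 2 groups alone and fits without 1 library. A minimum of 10 counts in each library of a fit removed the low members from the test, and the number of members called fell to 1 at 1 h, 2 at 4 h, 3 at 12 h, 3 at 24 h, 2 for 4 h against 1 h, 3 for IFN-γ/LPS against IL-4, 3 against IL-13, 1 with LPS in RAW264.7, 3 between resting cells and 2 for the difference of responses. That filter also lost the call of Max for 12 h against 4 h (-0.32, adjusted p = 0.017). DESeq2 called 0 members with IL-4 and 1 with LPS in RAW264.7. It also lost the calls of Mnt at 1 h, Mxd4 for 4 h against 1 h, Max for 12 h against 4 h and Mxi1 for the difference of responses. Without 1 library, 1 to 2 members were called for 24 h against 12 h, 0 to 1 with IL-4 and 1 to 2 with LPS in RAW264.7, 3 to 5 at 1 h, 5 to 6 at 4 h, 4 to 6 for 4 h against 1 h, 2 to 4 for 12 h against 4 h, 5 to 6 between resting cells and 4 to 5 for the difference of responses. Signs turned only for changes called in neither fit: on library totals, Mlx at 1 h (-0.049), at 4 h (-0.37) and for 4 h against 1 h (-0.33), and Mxi1 for IL-13 against IL-4 (0.021) and between resting cells (0.035). Mlx also turned with at least 10 counts (-0.00088 at 4 h and -0.067 for 4 h against 1 h), with 1 count (-0.0028) and unstranded (-0.027). Without 1 library, signs varied over -0.076 to 0.089 (Mlx, 4 h against 1 h), -1.02 to 0.13 (Myc, 12 h against 4 h), -0.47 to 0.091, -0.30 to 0.89 and -0.18 to 0.44 (Myc, Mxi1 and Mnt, 24 h against 12 h), -0.042 to 0.088, -0.29 to 0.11 and -0.12 to 0.11 (Max, Mxd1 and Mxd4, IL-4), -0.022 to 0.26 (Mxd4, IL-13), -0.11 to 0.047, -0.26 to 0.080 and -0.38 to 0.0056 (Mxi1, Mnt and Mlx, IL-13 against IL-4), -0.40 to 0.0038 (Mxi1, resting cells) and -0.027 to 0.22 (Mlx, difference of responses).

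Same-numbered replicates did not deviate together (mean r = 0.0201 in the time course, range -0.052 to 0.154, and at most 0.0107 on average elsewhere). With the replicate block, 1 call changed: Mxd4 for 4 h against 1 h (-1.16, adjusted p = 0.011), which left 4 members called there. Over all genes, calls for LPS in RAW264.7 numbered 2625 in edgeR and 1226 in DESeq2, those between resting cells 6949 and 4348 with a minimum of 10 counts per library, and those for IL-13 against IL-4 10, with 4 in DESeq2 or with that filter and 18 with a minimum of 1 count. Plain totals moved the split of all calls most, from 2486 higher and 2446 lower to 1487 and 4641 at 4 h. Scaled by TMM over all libraries, 23 of 63 group means of the members moved by more than their SD. Depth limits members at a few CPM, such as Myc, Mnt, Mxd4 and Mxi1 from 4 h on.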
